A study of Mus musculus with 4 samples.

Results

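The 31 genes described here mark macrophages and other leukocytes. They were chosen by name from the 53700 genes of the deposited table, as macrophage markers, C1q chains, Fc receptors and their adaptors, regulators of myeloid cells and genes expressed by nearly all leukocytes, with earlier results of these data known, so their difference between genotypes is described and not tested. The 4 RNA-seq libraries came from primary spermatocytes sorted from testes of C57BL/6 mice of 8 weeks by flow cytometry on Hoechst, a DNA dye. The genotypes compared were circSry KO (replicates 1 and 2) and wild type (replicates 2 and 3), and the knockout removes the splice acceptor needed for circSry, a circular RNA from the sex-determining gene Sry. The n of 2 mice in each group and the sort by DNA content from a suspension of digested testis limit what the groups can stand for.

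Macrophages are the most abundant immune cells of the testis interstitium, and further macrophages lie on the wall of the seminiferous tubules. They depend on the growth factor receptor Csf1r and on the transcription factor PU.1, the product of Spi1, clear dying cells through scavenger, complement and Fc receptors, and digest what they take up in lysosomes. Spermatocytes lie inside the tubules, where immune cells are normally not found.

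The libraries held 8191397 to 8839461 expected counts for circSry KO and 8045148 to 8422943 for wild type, so that 3 counts stood for 0.339 to 0.373 CPM (counts scaled to library size). Of all genes, 17766 passed the filter on low counts and were fitted with edgeR's quasi-likelihood test; a gene was called at a Benjamini-Hochberg adjusted p under 0.05 and a change of at least 1 on the log2 scale. Sycp3, a component of the synaptonemal complex of spermatocytes, had 122 and 61.6 TPM (transcripts scaled by length and library size) in circSry KO and 430 and 326 TPM in wild type. Sry had 0 counts in all 4 libraries, which allows up to 0.373 CPM, so the knockout could not be checked from the counts. Replicates of either genotype differed by more than counting noise, and the mean chi-square of a gene was 35.7 between the circSry KO libraries and 11.2 between the wild type libraries.

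PU.1 binds a purine-rich box with the letters GAGGAA. Of the 23 members with a RefSeq promoter (GRCm38.p6), 14 had these letters on either strand in the 250 bases before a RefSeq start. That is a share of 60.9%, against 25.9% of 27025 genes. A gene with several starts was counted if any of its windows held the letters, and the number of starts was not accounted for. The longer form GAGGAAGT, which contains these letters, was in 1 of the 23, or 4.35%, against 2.79% of genes. The match describes letters only, and Fcgr3, the member that was not higher in circSry KO, had them too. Lyz2, Cybb, Fcer1g, Coro1a, Lcp1, Ms4a7, Ccr2, Cd163 and Cx3cr1 had none in any such window. The stretches that lie before the annotated gene are shown for C1qb and C1qc, which are neighbours on chromosome 4, for Ctss, whose counts followed theirs, and for Mrc1, whose counts did not. They are written in the direction of the gene, with GAGGAA or its reverse complement TTCCTC in capitals, and the coordinates are from an exact match to GRCm39.
C1qb, chr4:136613512-136613761, minus strand: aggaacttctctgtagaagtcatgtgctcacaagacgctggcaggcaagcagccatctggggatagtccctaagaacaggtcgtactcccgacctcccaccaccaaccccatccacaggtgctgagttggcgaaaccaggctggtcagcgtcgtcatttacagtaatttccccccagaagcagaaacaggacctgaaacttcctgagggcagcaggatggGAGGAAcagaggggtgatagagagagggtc
C1qc, chr4:136620377-136620475, minus strand: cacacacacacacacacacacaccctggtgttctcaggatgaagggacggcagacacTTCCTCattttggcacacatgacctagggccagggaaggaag
Ctss, chr3:95433847-95433962, plus strand: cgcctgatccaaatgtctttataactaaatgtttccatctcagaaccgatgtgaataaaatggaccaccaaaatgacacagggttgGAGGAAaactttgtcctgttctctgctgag
Mrc1, chr2:14233975-14234150, plus strand: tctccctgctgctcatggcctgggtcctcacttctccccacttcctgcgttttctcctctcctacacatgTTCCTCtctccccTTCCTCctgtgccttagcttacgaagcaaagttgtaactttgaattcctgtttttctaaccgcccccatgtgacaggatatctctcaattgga
The box of C1qb began 30 bases before the RefSeq start and that of Ctss 164 bases before it. C1qc had its box on the other strand, 193 bases before the start, and Mrc1 had 3 matches in the window, of which those at 180 and 167 bases, on the other strand, lie in the stretch shown. The 31 genes lie on 14 chromosomes, with C1qb, C1qc and C1qa next to each other on chromosome 4, at 136606009 to 136613511, 136616466 to 136620376 and 136623223 to 136626161 (GRCm39, GENCODE M39). Of the other genes that the values below turn on, Lyz2 lies on chromosome 10 from 117111557 to 117118346, Aif1 on chromosome 17 from 35387384 to 35395053 and Fcgr3 on chromosome 1 from 170878738 to 170893549.

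Nearly all of the genes were higher in circSry KO. Summed over the 31 genes, the level was 853 and 782 TPM in circSry KO and 221 and 209 TPM in wild type, a 3.80-fold difference of means. Aif1, Csf1r and Fcgr3 made up most of the wild type sum. Without them the other 28 genes summed to 345 and 247 TPM in circSry KO against 24.4 and 20.5 TPM in wild type, a 13.2-fold difference. Leaving out the genes with the highest wild type levels raises the fold by itself, so this larger value describes the remaining genes only. No single gene of these 28 exceeded 3.21 TPM or 26 counts in a wild type library, while in circSry KO they reached 77.4 TPM. In whole samples of RNA, more cells of a type and more RNA per cell cannot be told apart.

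Of the 31 genes, 29 passed the filter on low counts, and Fcgr1 and Ms4a7 did not. 28 of the 29 were called higher, with 20.0% of all genes called higher, 0 were called lower, with 15.0% of all genes called lower, and Fcgr3 was called neither. The median log2 fold change was 3.89, or 3.68 with the 2 fitted genes that had no wild type count at their lower bound, against 0.07 for all genes fitted. Both circSry KO libraries were above both wild type libraries in CPM for 30 of the 31 genes, as they were for 36.6% of all genes, and in TPM for 28, as for 29.5% of all genes. These genes were picked because of this contrast, so the counts are a description of the choice. With limma on log2(TPM + 1), 24 were called higher, without Cd163, Itgam, Spi1 and Ccr2. Without wild type 2, Csf1r, Cx3cr1 and Spi1 were not called, and without wild type 3, Csf1r was not.

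**Figure D1:**
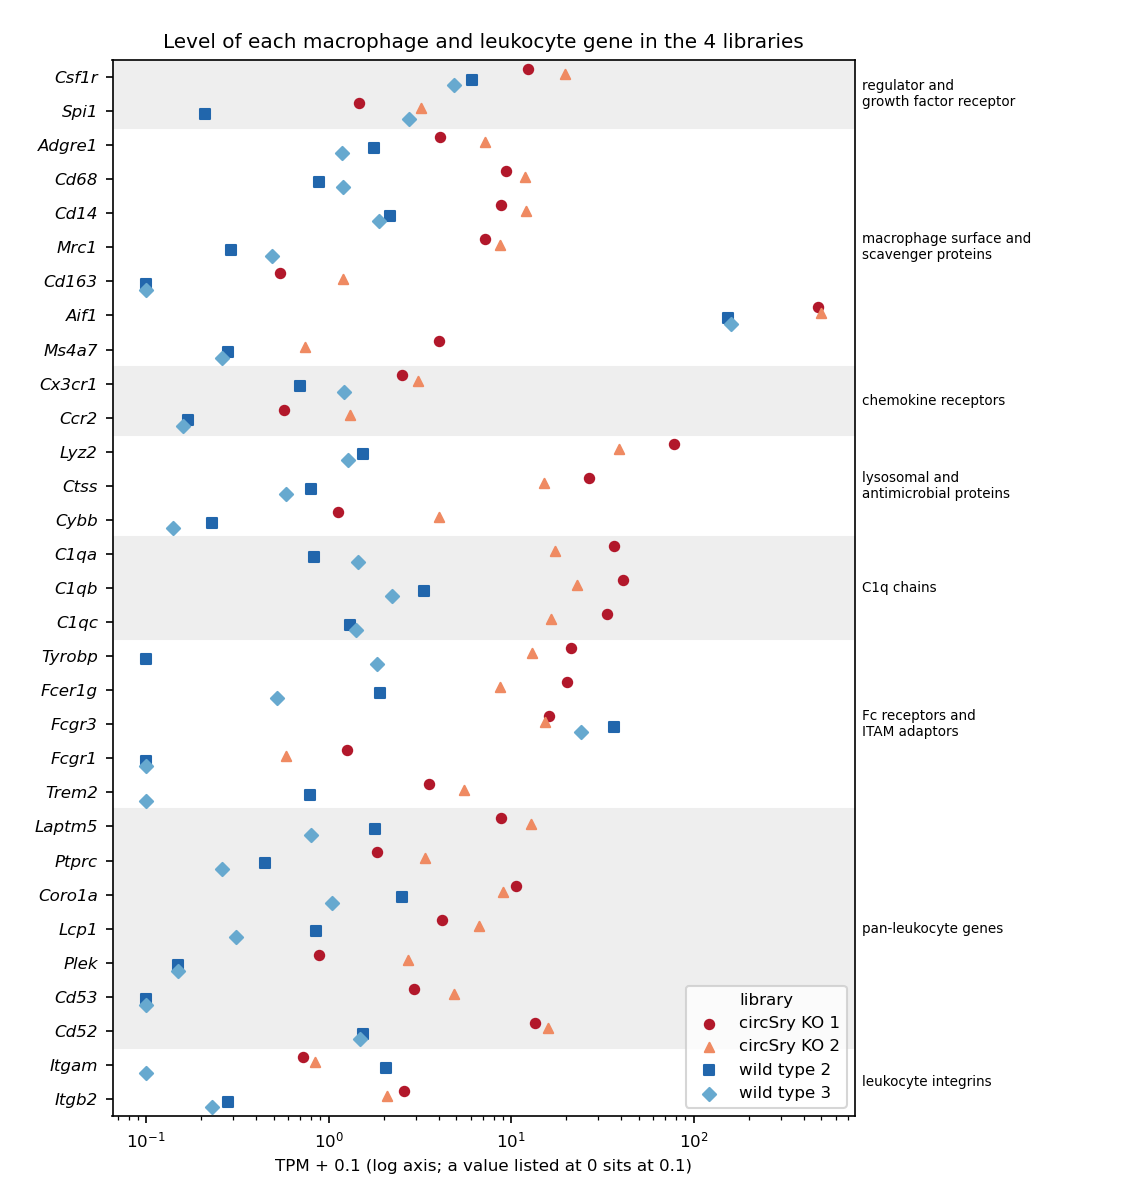
Level of each of the 31 genes in the 4 libraries, as TPM + 0.1 on a log axis, with circSry KO 1 and 2 as red circles and orange triangles and wild type 2 and 3 as blue squares and diamonds, grouped by role. Aif1 stands at 480 and 500 TPM in circSry KO and 154 and 160 TPM in wild type, far above the rest, and Fcgr3 is the gene whose wild type symbols lie to the right of both circSry KO symbols.

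The wild type values rest on few reads for most of the genes. 22 of the 31 had fewer than 10 counts in both wild type libraries. Cd163, Fcgr1 and Cd53 had 0 counts in both, and a further 6 genes, Trem2, Plek, Ms4a7, Ccr2, Itgam and Tyrobp, had 1 to 3 counts over both. For these 9 genes the change is described by a ratio of summed counts or a lower bound, and their fitted values enter the counts of calls, the medians and the account of other settings.

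The regulator Spi1 and the growth factor receptor Csf1r stand at the top of the macrophage program. Csf1r, which binds the growth factors CSF1 and IL-34, had 423 and 295 counts in circSry KO and 138 and 120 in wild type. The groups did not overlap, and the fitted log2 fold change was 1.41 (SE 0.33). In TPM the order within circSry KO turned round, with 12.3 in circSry KO 1 and 19.6 in circSry KO 2 against 5.98 and 4.76 in wild type, since fewer counts stood for each TPM in circSry KO 2. The ratio of count to TPM, relative to that of the median gene of the library, was 2.29 in circSry KO 1 and 1.32 in circSry KO 2, against 2.16 in either wild type library. The neighbour Hmgxb3 overlaps Csf1r by 2189 bases on the other strand, and had 307 and 440 counts in circSry KO against 641 and 632 in wild type, so its own counts ran the other way.

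Spi1 had 19 counts in each circSry KO library and 1 and 4 in wild type. All 4 values were low, and the circSry KO libraries were above both wild type libraries by counts, with a log2 fold change of 2.80 (SE 0.72) that was 4.01 without wild type 3 and 2.16 without wild type 2. In TPM the groups overlapped, with 1.37 and 3.10 in circSry KO and 0.11 and 2.65 in wild type. Here 4 counts in wild type 3 stood for 2.65 TPM and 19 counts in circSry KO 1 for 1.37 TPM, because TPM also divides by the transcript length estimated in each library.

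Among the surface and scavenger proteins, Mrc1, the mannose receptor of tissue macrophages, differed most clearly. It had 191 and 239 counts in circSry KO and 5 and 8 in wild type. In TPM it stood at 7.07 and 8.56 in circSry KO and 0.19 and 0.39 in wild type, with a log2 fold change of 4.97 (SE 0.48). Cd163, the receptor that takes up haemoglobin bound to haptoglobin, had 14 and 21 counts in circSry KO and 0 in both wild type libraries, which is at least 5.58-fold higher against a floor of 3 counts in each library. Both mark resident macrophages.

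Adgre1, which encodes the F4/80 antigen used to identify mouse macrophages, had 92 and 121 counts in circSry KO and 26 and 18 in wild type. Its log2 fold change of 2.22 (SE 0.45) was among the smaller of the members. Cd68, a glycoprotein of macrophage lysosomes and endosomes, had 53 counts in each circSry KO library and 4 and 6 in wild type, a log2 fold change of 3.31 (SE 0.55). The replicates of Cd68 were close in both genotypes and the groups were far apart. Cd14, the co-receptor for bacterial lipopolysaccharide, had 91 and 97 counts in circSry KO and 15 and 14 in wild type, a log2 fold change of 2.63 (SE 0.45).

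Ms4a7, a tetraspan protein of macrophages, had 29 and 5 counts in circSry KO and 1 in each wild type library, a count ratio of 16.3 with a 95% counting interval of 4.17 to 140. Most of that difference came from circSry KO 1.

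Aif1, which encodes the actin-binding protein IBA1 of macrophages and microglia, stood apart in level. It had 2128 and 1712 counts in circSry KO and 468 and 520 in wild type, and took 37.5% and 42.2% of all counts of the 31 genes in circSry KO against 48.9% and 56.7% in wild type. The log2 fold change of 1.89 (SE 0.32) was smaller than for most of the other genes, and its wild type level of 154 and 160 TPM was far above that of the other 30 genes. Aif1 is known to be expressed in spermatids as well as in macrophages, and these libraries cannot divide its counts between cell types. A long noncoding gene on the other strand of Aif1, Gm17705, had at most 14 counts in any library.

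The chemokine receptor genes were low. Cx3cr1, the fractalkine receptor of resident macrophages and patrolling monocytes, had 66 and 52 counts in circSry KO and 9 and 22 in wild type. The groups did not overlap, but the wild type libraries differed from each other, and the log2 fold change of 1.85 (SE 0.51) was 2.61 without wild type 3 and 1.36 without wild type 2. Ccr2, the receptor that brings monocytes out of the blood, had 12 and 19 counts in circSry KO and 1 in each wild type library, a count ratio of 14.8 (95% counting interval 3.78 to 128).

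The 3 chains of C1q, the recognition molecule of the classical complement pathway, which macrophages make themselves, were among the most abundant of the genes in circSry KO. C1qa had 228 and 80 counts in circSry KO and 3 and 6 in wild type. C1qb had 269 and 112 counts in circSry KO and 14 and 10 in wild type. C1qc had 250 and 91 counts in circSry KO and 6 and 7 in wild type. All 3 were higher in circSry KO 1 than in circSry KO 2 and low in both wild type libraries, with log2 fold changes of 4.97 (SE 0.62), 3.89 (SE 0.50) and 4.60 (SE 0.56). Without circSry KO 1 these were 4.12, 3.21 and 3.79. Summed, the chains stood at 111 and 56.4 TPM in circSry KO and 5.15 and 4.79 TPM in wild type.

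The Fc receptor genes did not move as one. Fcgr3, the low-affinity receptor for immunoglobulin G, was the exception among the 31 genes, with 137 and 95 counts in circSry KO and 193 and 138 in wild type. In TPM it had 16.04 and 15.24 in circSry KO and 36.7 and 24.2 in wild type, both circSry KO libraries being below both wild type libraries. The log2 fold change was -0.58 (SE 0.35) and was not called. Fcgr3 took 2.42% and 2.34% of the counts of the 31 genes in circSry KO and 20.1% and 15.05% in wild type. Its inhibitory relative Fcgr2b, which is similar in sequence, had 109 and 71 counts in circSry KO and 26 and 29 in wild type, a log2 fold change of 1.63 (edgeR, adjusted p = 0.00864), and was not called when either wild type library was left out. Fcgr4, another relative, had 10 and 13 counts in circSry KO and 1 and 0 in wild type. Reads that match several similar genes are shared out by estimation, which leaves fractions in the expected counts. The expected counts of Fcgr3, Fcgr2b and Fcgr4 were whole numbers in every library, so no such sharing shows in them.

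Fcgr1, the high-affinity receptor for immunoglobulin G, had 21 and 6 counts in circSry KO and 0 in both wild type libraries, at least 4.31-fold higher against the floor. Fcer1g encodes the common signalling chain that carries Fcgr1 and Fcgr3 to the surface, and had 68 and 22 counts in circSry KO and 4 and 1 in wild type. Its log2 fold change of 4.02 (SE 0.75) was 5.26 without wild type 2, 3.35 without wild type 3 and 3.08 without circSry KO 1. The signalling chain was thus higher in both circSry KO libraries while Fcgr3, which uses it, was not. Tyrobp, the related adaptor DAP12, had 54 and 25 counts in circSry KO and 0 and 3 in wild type, a count ratio of 25.2 (95% counting interval 8.32 to 125). Trem2, a lipid receptor that signals through DAP12, had 19 and 24 counts in circSry KO and 1 and 0 in wild type, a count ratio of 41.2 whose interval, 7.01 to 1663, shows how little the single wild type count fixes it.

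Of the leukocyte integrins, Itgb2, the common beta chain CD18, had 49 and 31 counts in circSry KO and 2 in each wild type library, with a log2 fold change of 4.17 (SE 0.67). Itgam, the alpha chain CD11b that pairs with it on myeloid cells, had 21 and 18 counts in circSry KO and 3 and 0 in wild type, a count ratio of 12.5 (95% counting interval 3.96 to 63.0). In TPM Itgam ran the other way in wild type 2, which had 1.96 TPM from 3 counts, against 0.62 and 0.74 TPM in circSry KO. The ratio of count to TPM relative to the median gene was 2.25 and 2.14 in circSry KO and 0.14 in wild type 2, a ratio that follows the estimated transcript length.

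The lysosomal and antimicrobial genes included the largest fitted folds among the genes with wild type counts. Lyz2, the lysozyme of macrophages and neutrophils, had 646 and 242 counts in circSry KO and 8 and 7 in wild type. It was the most abundant of the genes after Aif1 in both circSry KO libraries, at 77.4 and 38.9 TPM against 1.44 and 1.17 TPM in wild type. The log2 fold change was 5.78 (SE 0.53), and 4.99 without circSry KO 1. Lyz1, the near copy of Lyz2 made by Paneth cells, had at most 3 counts in any library. Ctss encodes cathepsin S, a protease of antigen processing, and had 229 and 97 counts in circSry KO and 4 and 3 in wild type, a log2 fold change of 5.41 (SE 0.59), or 4.75 without circSry KO 1.

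Cybb, the catalytic subunit of the phagocyte NADPH oxidase, had 36 and 81 counts in circSry KO and 3 and 1 in wild type. It was the higher one in circSry KO 2, unlike Lyz2 and Ctss. Its log2 fold change of 4.75 (SE 0.73) was 5.67 without wild type 2, 4.16 without wild type 3 and 3.96 without circSry KO 2. Xk, which overlaps Cybb by 2287 bases on the other strand, had 181 counts in each circSry KO library and 46 and 68 in wild type, and was called higher (log2 fold change 1.60, edgeR, adjusted p = 0.00425) except without wild type 2. The overlap is of the whole gene spans, introns included, and the counting is not stated to use strand. The expected counts of Xk and Cybb were whole numbers in every library, so no reads shared out between them show in the counts.

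The genes of leukocytes in general were all higher in circSry KO. Ptprc, which encodes CD45, the phosphatase on every nucleated blood cell, had 59 and 79 counts in circSry KO and 8 and 4 in wild type, a log2 fold change of 3.45 (SE 0.55). Laptm5, a lysosomal membrane protein of blood cells, had 158 and 119 counts in circSry KO and 8 and 9 in wild type, a log2 fold change of 3.94 (SE 0.47). For both genes the lowest circSry KO library was above the highest wild type library. Cd53, a tetraspanin of leukocytes, had 33 and 41 counts in circSry KO and 0 in both wild type libraries, at least 11.8-fold higher against the floor. Cd52, a small glycoprotein of lymphocytes and monocytes, had 29 and 26 counts in circSry KO and 2 in each wild type library, with a log2 fold change of 3.64 (SE 0.68).

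Lcp1, the leukocyte plastin that bundles actin, had 106 and 123 counts in circSry KO and 13 and 4 in wild type. Its log2 fold change of 3.68 (SE 0.54) was 4.75 without wild type 2 and 3.04 without wild type 3. Coro1a, another actin-binding protein of leukocytes, had 115 and 59 counts in circSry KO and 17 and 5 in wild type, and its log2 fold change of 2.89 (SE 0.56) was 4.03 without wild type 2 and 2.25 without wild type 3. In both genes wild type 2 was above wild type 3 and below either circSry KO library. Plek, which encodes pleckstrin, a substrate of protein kinase C in platelets and leukocytes, had 23 and 55 counts in circSry KO and 1 in each wild type library, a count ratio of 37.3 (95% counting interval 9.996 to 314). Summed over the 7 genes of this group, the level was 42.0 and 54.6 TPM in circSry KO and 6.70 and 3.44 TPM in wild type.

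**Figure D2:**
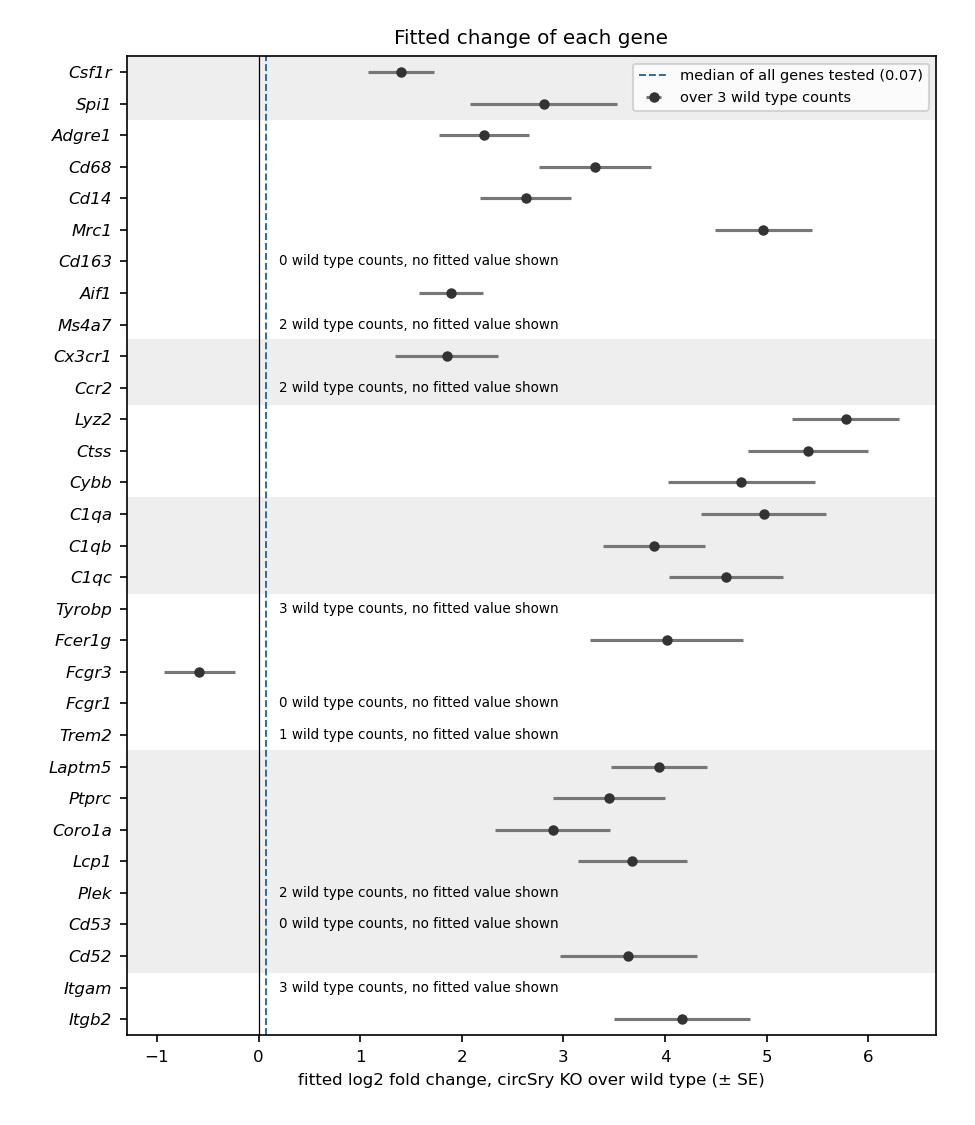
Fitted log2 fold change, circSry KO over wild type, with its standard error, for the 22 genes with more than 3 counts over both wild type libraries; the dashed line is the median of all genes fitted, 0.07, and the rows of the 9 other genes give their wild type counts in place of a point. The largest values shown are Lyz2 at 5.78 and Ctss at 5.41, and Fcgr3 at -0.58 is the gene left of 0.

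The circSry KO libraries did not hold the genes in the same proportions. The ratio of circSry KO 2 to circSry KO 1 in CPM had a 95% counting interval below 1 for 13 of the 31 genes, above 1 for 5 and spanning 1 for 13. Over all genes fitted the median ratio was 1.03, with 0.576 at the 10th percentile and 2.05 at the 90th. Of the 31 genes 10 lay below that 10th percentile and 2 above the 90th. Lowest were Ms4a7 at 0.189 (95% counting interval 0.0570 to 0.493), Fcgr1 at 0.313 (0.103 to 0.801) and Fcer1g at 0.354 (0.208 to 0.580). The C1q genes lay between 0.384 and 0.455, Lyz2 was at 0.410 and Ctss at 0.463. The 5 genes that were higher in circSry KO 2 were Plek at 2.62 (1.58 to 4.46), Cybb at 2.46 (1.64 to 3.75), Ptprc at 1.46 (1.03 to 2.09), Adgre1 at 1.44 (1.09 to 1.91) and Mrc1 at 1.37 (1.13 to 1.66). The Spearman rho between this ratio and the length of the longest annotated transcript was 0.41 over the 31 genes and 0.39 over 17561 fitted genes; both are descriptions across genes of the same 2 libraries, and whether length plays a part in the members' ratios was not tested.

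**Figure D3:**
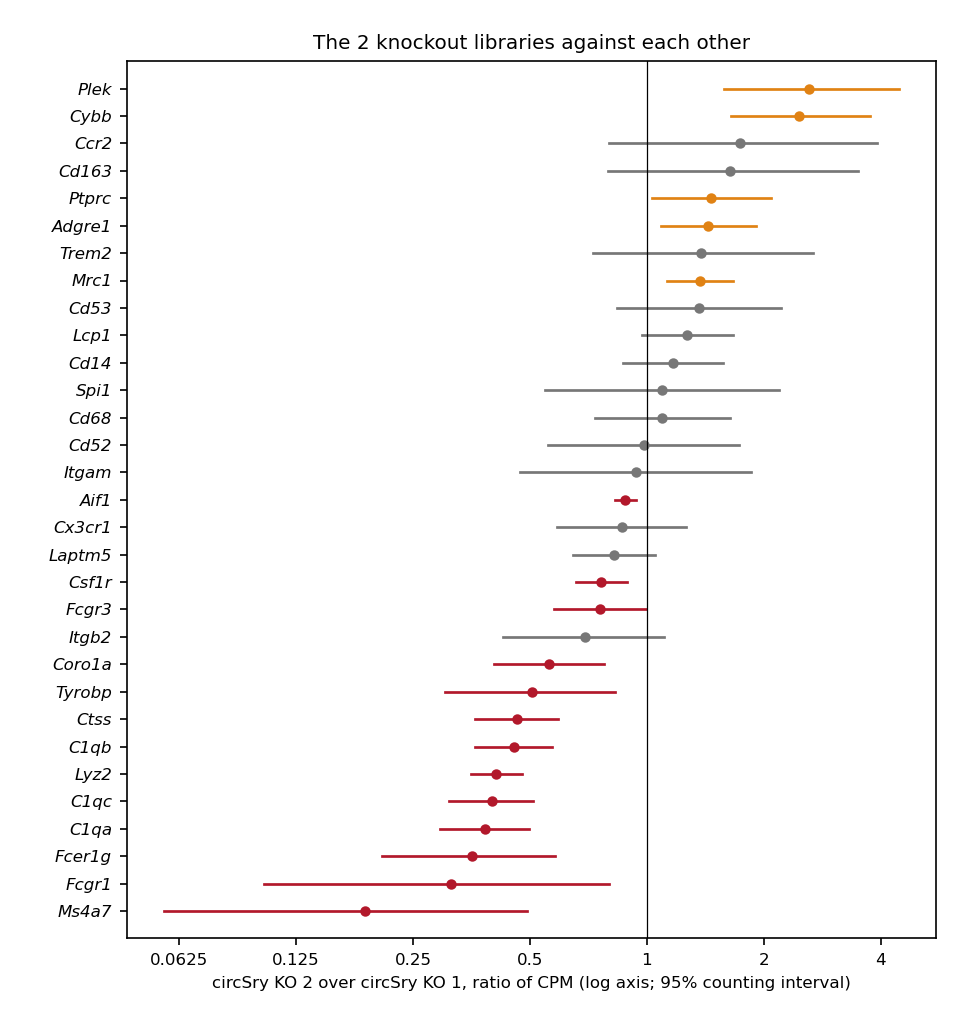
Ratio of circSry KO 2 to circSry KO 1 in CPM for each of the 31 genes on a log axis, with its 95% counting interval as a line, red where the interval lies below 1, orange where it lies above 1 and grey where it spans 1. Ms4a7 at 0.189 is lowest and Plek at 2.62 highest, and the C1q genes, Lyz2 and Ctss sit together between 0.384 and 0.463.

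The order of the 31 genes by level was much alike between libraries. Spearman's rho of their CPM was 0.86 between the circSry KO libraries and 0.86 between the wild type libraries, and 0.77 to 0.78 between a circSry KO and a wild type library. These are descriptions across genes, which differ in length and share their library. Lyz2 took 11.4% and 5.96% of the counts of the 31 genes in circSry KO and 0.835% and 0.763% in wild type.

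Other genes of macrophages and phagocytes were taken from 11 lists that held none of the 31 genes. Of 147 listed genes 102 were fitted, of which 60 were called higher, or 58.8%, 4 lower and 38 neither. Of all genes fitted, 20.0% were called higher and 15.0% lower. The median log2 fold change of the listed genes was 1.55, against 0.07 for all genes. The filter passes a gene on the counts of either genotype alone. Tnf, Clec4n, Cd209f and P2ry12, with 0 counts in both wild type libraries, thus passed through circSry KO only and could hardly be called lower. The lists were also chosen with earlier results of these data known, so these shares are a description. The count called higher was 35 without wild type 2, 37 without wild type 3, and 34 or 33 with limma on log2(TPM + 1) or log2(TPM + 0.1). All adjusted p-values of these genes come from the edgeR fit, adjusted by Benjamini-Hochberg over all 17766 genes.

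Of the transcription factors of myeloid cells, 6 of 8 fitted were higher and 0 lower. Maf, a factor of differentiated macrophages, had a log2 fold change of 2.83 (adjusted p = 0.000597), or 3.42 without wild type 2. Cebpb, a factor of inflammatory monocytes and macrophages, had 2.10 (adjusted p = 0.00508). Ikzf1 and Irf5 had 2.01 and 1.87 and were not called without wild type 2 or without wild type 3. Irf8, which acts with PU.1, had 20 and 48 counts in circSry KO and 24 and 31 in wild type, so its groups overlapped. Of 3 fitted genes of the growth factor axis 1 was higher, the Csf1r ligand gene Csf1, which had a log2 fold change of 1.68 (adjusted p = 0.0115) and was not called without wild type 3, while Il34 had at most 9 counts in any library.

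Of 14 fitted genes of immunoreceptor signalling 9 were higher, or 4 without wild type 2, and Fgr, a Src family kinase outside the naming rule that is given because it was the single lower call, was lower, though not without wild type 3. Lilrb4a and Cd33, inhibitory receptors of myeloid cells, had 74.7 and 102 counts against 8 and 6, and 32 and 36 counts against 1 and 0, in circSry KO against wild type. Syk, the kinase that Fcer1g and Tyrobp recruit, had a log2 fold change of 2.75 (adjusted p = 0.00574), or 2.12 without circSry KO 2, and Pik3ap1, an adaptor of PI3K, had 1.84 and was not called without wild type 2. All 4 fitted partners of Cybb in the oxidase were higher, or 2 without wild type 3. Cyba, its membrane partner, had 109 and 59 counts in circSry KO and 6 and 11 in wild type, and its log2 fold change was 3.21 (adjusted p = 0.0005). The cytosolic subunit gene Ncf1 had 2.69 and the GTPase gene Rac2 had 2.31, and Rac2 was not called without wild type 3.

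Of 7 fitted pattern recognition receptors and partners 6 were higher and 1 lower, with 3 called higher when either wild type library was left out. Tlr2 had a log2 fold change of 3.04 (adjusted p = 0.00246), which was 4.01 without wild type 2 and 2.44 without wild type 3. Ly86, a secreted partner of the Toll-like receptor family, had 3.29 (adjusted p = 0.00413). Clec4n, which encodes Dectin-2, had 21 and 10 counts in circSry KO and 0 in wild type, at least 4.95-fold higher. Myd88, the adaptor shared by most Toll-like receptors, went the other way, with 79 and 67 counts in circSry KO and 389 and 310 in wild type, a log2 fold change of -2.32 (adjusted p = 0.00023). Tlr1 had at most 6 counts in any library.

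Of 15 fitted scavenger receptors and receptors for dying cells 11 were higher and 0 lower, 6 without wild type 2 and 7 without wild type 3. Axl, a receptor for dying cells, had a log2 fold change of 2.65 (adjusted p = 0.000551), or 1.95 without circSry KO 2, and Stab1 had 2.52 (adjusted p = 0.000347). Cd209f and P2ry12 had 0 counts in both wild type libraries and were at least 9.46-fold and 5.11-fold higher. Mertk, the other main receptor for dying cells, was not called (log2 fold change 1.07, adjusted p = 0.131) except without circSry KO 1. Of 9 fitted complement genes other than C1q 5 were higher. C1s1 and C1ra, the proteases that join C1q in the C1 complex, had 2.10 (adjusted p = 0.000913) and 1.83 (adjusted p = 0.0027). The receptor gene C3ar1 had 30 and 33 counts in circSry KO and 1 in each wild type library, and C3 had a log2 fold change of 2.31.

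Of 18 fitted lysosomal hydrolases 5 were higher, or 2 when either wild type library was left out, and 1 was lower, and their summed level was 761 and 914 TPM in circSry KO and 930 and 896 TPM in wild type. Ctsc, which activates granule proteases of leukocytes, had 153 and 114 counts in circSry KO and 9 and 5 in wild type, a log2 fold change of 4.16 (adjusted p = 7.15e-05). Lgmn and Ctsb had 1.35 and 1.07 and were not called without wild type 2 or without wild type 3.

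Of 4 fitted cytokines of macrophages 3 were higher and 1 lower. Il1b had 238 and 110 counts in circSry KO and 15 and 9 in wild type, a log2 fold change of 3.76 (adjusted p = 0.000121), and Tnf had 20 and 13 counts in circSry KO and 0 in wild type, at least 5.27-fold higher. Tgfb1, at 1.28, and Il1a, called lower at -1.98, were not called without wild type 2, Il1a was at -1.26 without circSry KO 1 and -3.34 without circSry KO 2, and Tgfb1 was also not called without wild type 3 or without circSry KO 2 and Il1a not without circSry KO 1. Of 12 fitted genes of the leukocyte cytoskeleton and membrane traffic 9 were higher and 0 lower, 4 without wild type 2. Cd37 had a log2 fold change of 2.05, Arhgdib 2.41, Myo1f 3.21, Evi2a 3.08 and Hcls1 1.87, of which Evi2a and Hcls1 were not called without wild type 2 and Hcls1 not without circSry KO 1. Without wild type 2 and without wild type 3 the values were 4.44 and 2.53 for Myo1f and 2.44 and 4.28 for Evi2a, and Hcls1 was at 2.701 without wild type 3. Was had at most 12 counts in any library. Of 8 fitted integrin and adhesion genes, Selplg was the single call, at 1.18 (adjusted p = 0.0494), and was not called without wild type 2, wild type 3 or circSry KO 1, and Itgal was not called (adjusted p = 0.296).

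**Figure D4:**
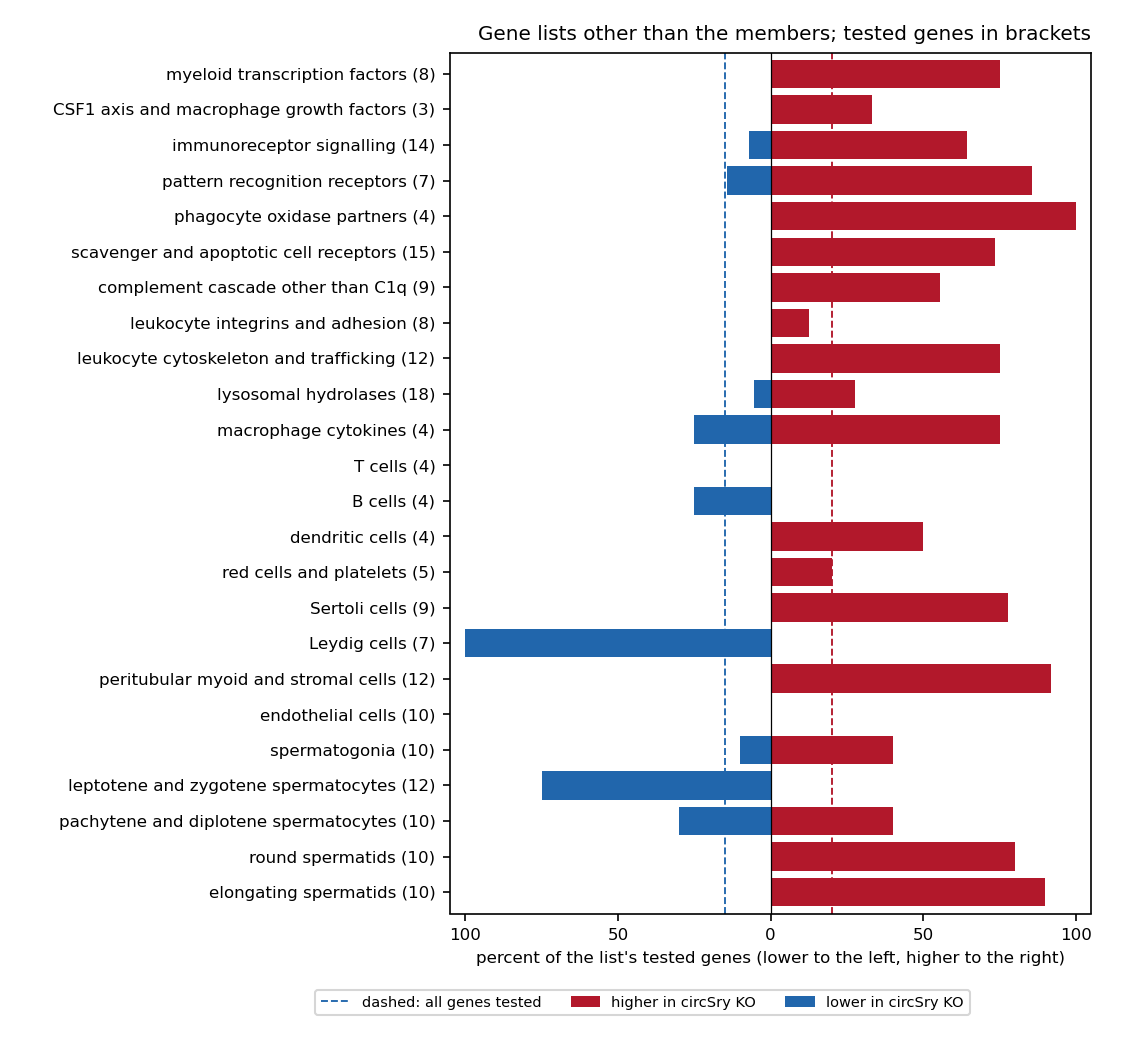
Percent of the fitted genes of each list drawn that were called higher (red, to the right) or lower (blue, to the left) in circSry KO, with the number of fitted genes in brackets and dashed lines at the shares of all genes, 20.0% and 15.0%. Not drawn, for too few fitted genes, are the NK cell list (0), the list of mast cells, basophils and eosinophils (0) and the neutrophil list (1). The oxidase partners are all called higher, 4 of 4, the T cell and endothelial lists have no call, and the Leydig cell list is all lower, 7 of 7.

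Markers of other leukocyte lineages were mostly at or near 0. Of 56 genes of T cells, B cells, NK cells, neutrophils, mast cells with basophils and eosinophils, and dendritic cells, 13 were fitted, 2 were called higher and 1 lower, with 5 called higher when no gene was filtered out and 0 without wild type 2. The NK cell gene Ncr1 and the mast cell protease gene Cma1 had 0 counts in all 4 libraries, S100a8 had 1 count in all and Cpa3 3. Nkg7 had 4 and 6 counts in circSry KO and 0 and 1 in wild type, and S100a9 had 5 and 7 in circSry KO and 0 in wild type. Klrb1c had at most 10 counts, Siglecf 4 and Xcr1 4 in any library. The neutrophil list had its sole fitted gene, Mpo, at 27 and 26 counts in circSry KO and 18 and 20 in wild type.

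The T cell list had 4 fitted genes and 0 calls by edgeR, with 1 at an unadjusted p under 0.05 and 0 called by DESeq2. With limma on either TPM scale 1 gene of the list was called lower, and with no filter on low counts 2 were called higher. Cd3e had 11 and 3 counts in circSry KO and 24 and 13 in wild type, Cd3d 29 and 18 in circSry KO and 14 and 8 in wild type, Cd3g at most 4, and Cd247 88 and 132 in circSry KO and 165 and 154 in wild type. Cd79a, a part of the B cell receptor, had at most 2 counts. The dendritic cell genes called higher were Ccr7, at 1.98, and Itgae, at 1.15, neither of them without wild type 2, Ccr7 not without wild type 3 and Itgae not without circSry KO 1, and Flt3 was not called. Of the red cell genes Hba-a1 had at most 12.2 counts and Hbb-bs at most 38.6 in any library, neither was called, and Alas2 was the single gene called of 5 (11 and 27 counts in circSry KO, 3 and 1 in wild type).

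Markers of some other testis cells also differed between the genotypes, in either direction, and their part in the values above was not tested. Of 12 fitted genes of peritubular myoid and stromal cells 11 were higher and 0 lower, with a summed level of 358 and 418 TPM in circSry KO against 102 and 67.8 TPM in wild type. Of 9 fitted Sertoli cell genes 7 were higher, Ctsl of the hydrolase list among them, and 0 lower, with 200 and 455 TPM in circSry KO against 122 and 89.8 TPM in wild type, so that this list was higher in circSry KO 2 than in circSry KO 1 while the C1q genes and Lyz2 were the other way round. All 7 fitted Leydig cell genes were lower, or 3 when either wild type library was left out, at 672 and 611 TPM in circSry KO against 1871 and 1579 TPM in wild type. Of 10 endothelial genes 0 were called by edgeR, 0 had an unadjusted p under 0.05 and 0 were called by DESeq2, at 64.7 and 65.4 TPM in circSry KO against 62.3 and 57.8 TPM in wild type. These 4 lists thus did not all move in the same direction.

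Germ cell lists moved as well. Of 12 genes of leptotene and zygotene spermatocytes 9 were lower and 0 higher, with a summed level of 715 and 575 TPM in circSry KO against 2351 and 1788 TPM in wild type. Of 10 pachytene and diplotene genes 4 were higher and 3 lower, and 0 were higher without wild type 2. Piwil1, which binds the piRNAs of pachytene cells, had 17.2 and 31.1 TPM in circSry KO and 644 and 468 TPM in wild type. Of 10 round spermatid genes 8 were higher, 2 of them without wild type 2, and of 10 genes of elongating spermatids 9 were higher, with 53202 and 44083 TPM in circSry KO against 9621 and 9492 TPM in wild type. Of 10 genes of spermatogonia 4 were higher and 1 lower, with 1 higher when either wild type library was left out. The part of these shifts in the values of the 31 genes was not tested.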

How the data were processed

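RNA from sorted primary spermatocytes of 2 circSry KO and 2 wild type mice had been made into libraries with the Illumina TruSeq RNA kit, which selects poly(A) RNA; no source states whether the counting used strand. The authors deposited expected counts and TPM per gene, with STAR 2.7.0f, RSEM 1.3.2 and edgeR 3.28.1 and the builds GRCm39 and mm9 named in the submitters' processing notes; RSEM shares reads of similar genes out by estimation. The deposited FPKM values and a second sheet of TPM (8 columns) were not used. Gene positions are from GENCODE M39 on GRCm39, in which 52610 of 53700 gene IDs were found.

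Expected counts were rounded and fitted over all genes with edgeR 4.0.16 in R 4.3.3 (filterByExpr by group, TMM scaling, quasi-likelihood test, Benjamini-Hochberg adjustment), after a test on simulated data. With 2 against 2 libraries an exact test cannot go below p = 0.333. TPM are given as deposited and were used with a pseudocount of 1 or 0.1 as an alternative in limma 3.58.1; DESeq2 1.42.0, voom, other scalings, no filter and leaving out each library were also run. CPM and 95% intervals (exact binomial, from counts) cover counting error only. The 31 genes and all lists were chosen with earlier results of these data known. All 31 are described; of each other leukocyte list the first 2 genes and up to 4 called genes with the smallest adjusted p are named, or the 2 with the highest mean TPM where none was called, and testis cell lists are given by their counts and sums. Some genes that this rule names are not reported here, but remain in the counts of their lists. Replicates were numbered by the labels, which do not say whether libraries of a group differ in more than the mouse.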

Additional observations from a re-analysis of the deposited data

How the results depend on the processing

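Of all 17766 genes, 3551 were called higher and 2671 lower as reported; 2219 and 2117 were called higher with limma on log2(TPM + 1) and log2(TPM + 0.1), and leaving out each library gave 1477 to 4120 higher and 1018 to 3284 lower. The share of calls that were higher was 57.1% as reported, 69.2% with upper-quartile scaling and 43.9% and 43.6% with limma on the 2 TPM scales, and the median of all genes was 0.07, 0.28, -0.13 and -0.16 under these. Of the 31 genes, 24 and 25 were called higher with limma on the TPM scales, 30 with no filter on low counts and 25 to 28 when each library was left out; none was called lower under any of these settings. For the lists of other macrophage and phagocyte genes, 34 and 33 were called higher on the TPM scales and 35 to 61 when each library was left out, against 60. For the other leukocyte lineages, 5 were called higher with no filter, 1 with the DESeq2 Wald test, 0 with limma on either TPM scale and 0 to 2 when each library was left out, against 2.

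The direction changed for 4 of the named genes. Itgam was at -0.035 with limma on log2(TPM + 1). Irf8 was at -0.42 and -0.65 on the TPM scales and between -0.58 and 0.80 when each library was left out. Flt3 was at 0.11 with upper-quartile scaling and between -0.43 and 0.32 when each library was left out, and Hba-a1 was between -0.22 and 0.68 when each library was left out. The cause was not tested for any of these. No paired analysis was run, because no label pairs a circSry KO library with a wild type library. Low wild type counts set the limit for most of the 31 genes, since 22 of them had fewer than 10 counts in both wild type libraries.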
